A study of Mus musculus with 5 samples.

Results

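Regulatory T cells were examined in single-cell RNA sequencing (10x 3' v2 chemistry) of ventral skin from C57BL/6J mice at postnatal day 28. A cell was counted as a regulatory T cell if it held at least 1 unique molecular identifier (UMI, 1 captured transcript) of Foxp3 and at least 1 UMI of Cd3d, Cd3e and Cd3g together. It also had to hold no UMI of Trdc, the constant segment of the gamma-delta T cell receptor, and less than 1% of its UMIs from Col1a1, Col1a2, Col3a1 and Dcn. By this rule 62 of 10611 cells that passed quality filters were regulatory T cells. The mice carried Prx1Cre and floxed Ikkb alleles (Prx1Cre+Ikkbf/f, here Ikkb_cKO, 3 libraries) or were wild type (WT, 2 libraries). Each library was made from a pool of 2 mice, so values are of pools and not of single animals. The Cre transgene follows Prrx1 regulatory sequence, which is active in mesenchyme, and Ikkb (Ikbkb in current nomenclature) encodes a kinase that frees NF-kB from its inhibitors. The title of the series places its question in Prx1-lineage fibroblasts and atopic dermatitis, so the immune cells described here came from skin in which another lineage was the target of the deletion.

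Regulatory T cells are CD4+ T cells that restrain other immune cells, and the transcription factor Foxp3 defines them. They carry the inhibitory receptor Ctla4 and the high-affinity interleukin-2 receptor chain Il2ra, and many carry the transcription factor Ikzf2 (Helios). In skin, as in other barrier tissues, they include cells with the interleukin-33 receptor Il1rl1 (ST2), the transcription factor Gata3 and the epidermal growth factor family ligand Areg, and they are known for wound repair, hair follicle support and control of inflammation.

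The Ikkb_cKO libraries held 8, 12 and 31 regulatory T cells among 984, 918 and 2369 kept cells, against 5 and 6 among 3088 and 3252 kept cells in the WT libraries. Their summed UMIs were 14358, 44268 and 71307 in Ikkb_cKO and 10218 and 11372 in WT. Median UMIs per member were 1620.5, 2694 and 2184 in Ikkb_cKO, against 1704 and 1958.5 in WT. In other T cells, defined by the same rule but with no Foxp3 UMI, the medians were 1915, 2674.5 and 2708.5 in Ikkb_cKO and 1998 and 2158 in WT. The 2 WT sums are small, so WT levels rest on few molecules. Nothing states that libraries of a genotype came from separate digestions, so p-values reflect only how far these libraries vary, and part of that may be technical. Barcodes found in more than 1 library numbered 68, and 0 of them was a member.

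Foxp3 (chromosome X, 7573644 to 7595245, GRCm38) was used by the rule, so its values are given only as a description. The members held 13, 19 and 71 Foxp3 UMIs in Ikkb_cKO libraries 1, 2 and 3, against 6 and 11 in WT libraries 1 and 2. Of the 62 members, 34 had 1 Foxp3 UMI, 12 had 2 and 16 had 3 or more, with a highest count of 6. Thus most members stood at the threshold, and T cells just outside it had none. A further 9 kept cells held Foxp3 but no CD3 UMI and were left out, and 0 cells were left out for Trdc or collagen genes. A single CD3 UMI was found in 4 members. Foxp3 was seen in 10.0% of T cells of both genotypes at a median of 2394 UMIs, and in 7.58% and 9.84% of T cells in the WT libraries. Among cells rich in macrophage genes and without CD3 it was seen in 3 of 1252 WT cells (0.240%, median 2388.5 UMIs). In Ikkb_cKO it was seen in 0 of 176 such cells (median 1355.5 UMIs). The share in T cells was thus above that in these cells, and whether free RNA was alike around both was not tested. A regulatory T cell whose Foxp3 transcript was not captured counts here as another T cell.

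The label was checked against genes the rule did not use. Of the 62 members, 61 held Ctla4, Il2ra or Ikzf2, and the exception was a cell of WT library 2. All 3 were found in 34 of 51 Ikkb_cKO members and in 2 of 11 WT members, and at least 2 in 50 Ikkb_cKO and 8 WT members. These genes were not confined to members. In Ikkb_cKO other T cells the mean shares with a UMI were 47.1% for Il2ra, 24.0% for Ctla4 and 18.6% for Ikzf2. In WT other T cells they were 14.8%, 13.9% and 19.1%. How many other T cells held at least 1 of the 3 was not counted. Cd4, the coreceptor of the helper lineage, was found in 2, 6 and 10 members of Ikkb_cKO libraries 1 to 3 and in 1 and 0 members of WT libraries 1 and 2. Cd8a, the coreceptor of cytotoxic T cells, had 0 UMIs in any member, which allows up to 19.8 CPM (a gene's share of summed UMIs, scaled to counts per 1e6 UMIs), or 3 UMIs in the summed members. Over the WT members alone 3 UMIs are 139 CPM. None of 9 further gamma-delta T cell genes was detected. The collagen genes of the rule, which had to be under 1%, are given only as a description. They were at 0 in 54 members, and the highest share was 0.077% of a cell's UMIs. Of 12 macrophage markers, 3 had a UMI, with summed levels of 0% to 0.0140% of UMIs in Ikkb_cKO and 0.00879% to 0.00979% in WT. Keratinocyte markers held 0.00696% to 0.0158% in Ikkb_cKO and 0% in both WT libraries, with 6 of 10 detected and Krt10 at 0. Any of Krt5, Krt14, Krt10 and Krt1 was found in 1 member, of Ikkb_cKO library 3. Fibroblast markers outside the rule held 0.00140% to 0.00904% in Ikkb_cKO and 0% and 0.0352% in WT libraries 1 and 2. Dendritic cell markers held 0.00678% to 0.0379% in Ikkb_cKO and 0.00979% and 0.0352% in WT. Of 9 B cell markers 3 had a UMI, with Cd79a and Ms4a1 at 0 and Ighm, the IgM heavy chain, at 2, 7 and 12 UMIs in Ikkb_cKO members and 3 and 5 in WT members. Cd8b1 was found in 1 WT member. Ighm was called higher in members than in other T cells (log2 1.21, SE 0.37, adjusted p = 0.0338 in edgeR), a call lost without Ikkb_cKO library 1, 2 or 3 or WT library 2 (adjusted p = 0.0570 to 0.193 in edgeR), and its part in other results was not tested. The label thus rests mainly on the Ikkb_cKO cells, and for the WT members on fewer markers. Protein was not measured.

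Regulatory T cells made up a larger share of all kept cells in Ikkb_cKO skin. The shares were 0.813%, 1.31% and 1.31% in Ikkb_cKO libraries 1, 2 and 3, against 0.162% and 0.185% in WT libraries 1 and 2. Every Ikkb_cKO library was above both WT libraries. The means were 1.14% ± 0.286 (SD, n = 3) and 0.173% ± 0.0160 (SD, n = 2), with a two-sided exact permutation p = 0.1, the smallest that 3 against 2 libraries allow. Other T cells moved the same way, at 107, 72 and 262 in Ikkb_cKO libraries, against 61 and 55 in WT libraries. Whether recovery of cells from the tissue differed between libraries was not tested.

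Among T cells the share did not separate the genotypes. T cells by the same rule, with or without Foxp3, numbered 115, 84 and 293 in Ikkb_cKO and 66 and 61 in WT. Regulatory T cells were 6.96%, 14.3% and 10.6% of them in Ikkb_cKO, against 7.58% and 9.84% in WT. Both WT values lay inside the range of the Ikkb_cKO values. The means were 10.6% ± 3.66 (SD, n = 3) and 8.71% ± 1.60 (SD, n = 2), a difference of 1.90 percentage points with p = 0.5 in the exact permutation test. With each T cell thinned to 1000 UMIs the shares were 7.59% ± 0.608 (n = 3) and 6.15% ± 2.46 (n = 2), with p = 0.5 in the exact permutation test. Thinning left out 36 of 492 T cells in Ikkb_cKO, 4 of them members, and 6 of 127 in WT, 0 of them members. Without WT library 1 the thinned difference turned to -0.303 percentage points.

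**Figure D1:**
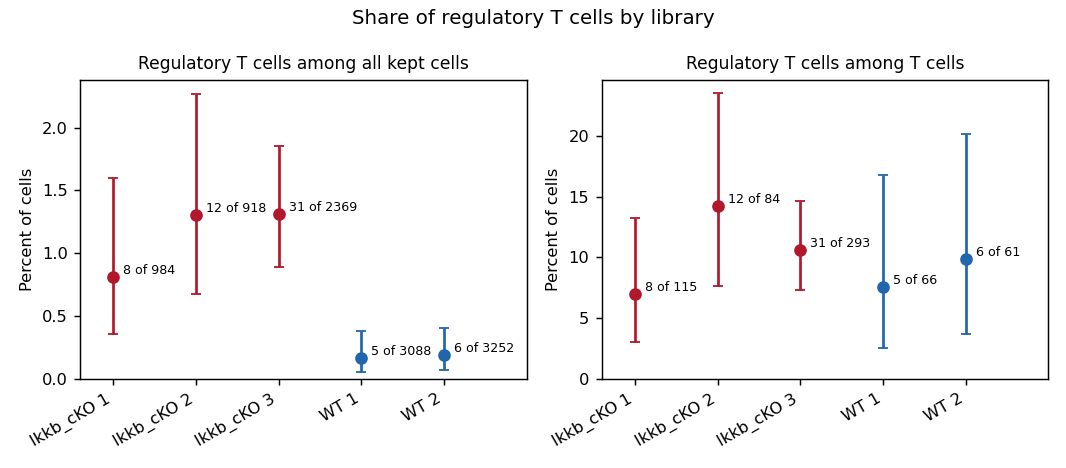
Regulatory T cells as a percent of all kept cells (left) and of T cells (right) in each library, with exact 95% binomial intervals that cover counting error only and the cell numbers beside each point. On the left the Ikkb_cKO points (red) lie at 0.813% to 1.31% above the WT points (blue) at 0.162% and 0.185%, and on the right the genotypes overlap.

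Regulatory T cells were then set against the other T cells of the same libraries. Of 10 costimulatory and TNF receptor genes, 7 could be tested, and 5 were higher in members (Tnfrsf4, Tnfrsf9, Icos, Tnfrsf1b and Tnfrsf18) and 0 lower. Counts were summed per library, and edgeR's quasi-likelihood test with library as a block tested 1520 genes besides those of the rule, with Benjamini-Hochberg adjustment and a threshold of 0.05. The test called 144 genes (9.47%). In regulatory T cells 46 genes were higher (3.03%) and 98 were lower (6.45%), with 293 at an unadjusted p under 0.05. The balance moved with the scaling. Higher calls were 31.9% of all calls with TMM normalisation, 42.4% with DESeq2's size factors and 58.3% with library totals, which shifted the median gene by 0.214 on the log2 scale. Without Ikkb_cKO library 1 there were 89 calls and without Ikkb_cKO library 3 there were 53.

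Of 22 core genes of regulatory T cells outside the rule, all 22 had a UMI in members and 12 could be tested. In members 8 of the 12 were higher and 0 were lower, with a median log2 difference of 1.70, against -0.10 over all genes tested. The largest difference among the 8 was that of Tnfrsf4. Tnfrsf4 (OX40), a costimulatory receptor, had 2856, 1536 and 2636 CPM in members of Ikkb_cKO libraries 1 to 3 and 2349 and 5012 CPM in members of WT libraries 1 and 2. Other T cells of the same libraries had 184, 144 and 103 CPM in Ikkb_cKO and 140 and 154 CPM in WT. Every library showed the difference, with no overlap between the cell sets (log2 4.01, SE 0.25, adjusted p = 8.13e-12 in edgeR). Tnfrsf9 (4-1BB), a costimulatory receptor of activated T cells, was higher by 2.96 on the log2 scale (SE 0.33) and Tnfrsf18 (GITR) by 1.03 (SE 0.26). The Tnfrsf18 call was lost without Ikkb_cKO library 1 (log2 0.90, adjusted p = 0.0957 in edgeR) and without library 3 (log2 0.94, adjusted p = 0.134 in edgeR).

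Ctla4, which removes costimulatory ligands from antigen-presenting cells, stood at 2995, 768 and 1024 CPM in Ikkb_cKO members and at 2545 and 2286 CPM in WT members. Its level in other T cells was 653, 219 and 74.7 CPM in Ikkb_cKO and 172 and 98.8 CPM in WT. Both sets varied several fold between libraries, yet members were higher in each library (log2 2.92, SE 0.34, adjusted p = 2.02e-05 in edgeR). Ikzf2 was higher by 2.72 (SE 0.38) and Il2ra by 1.90 (SE 0.36). Icos, a costimulatory receptor, was higher by 1.49 (SE 0.24) and Tigit, an inhibitory receptor, by 2.18 (SE 0.37). For these 4 genes every library had the higher value in members.

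**Figure D2:**
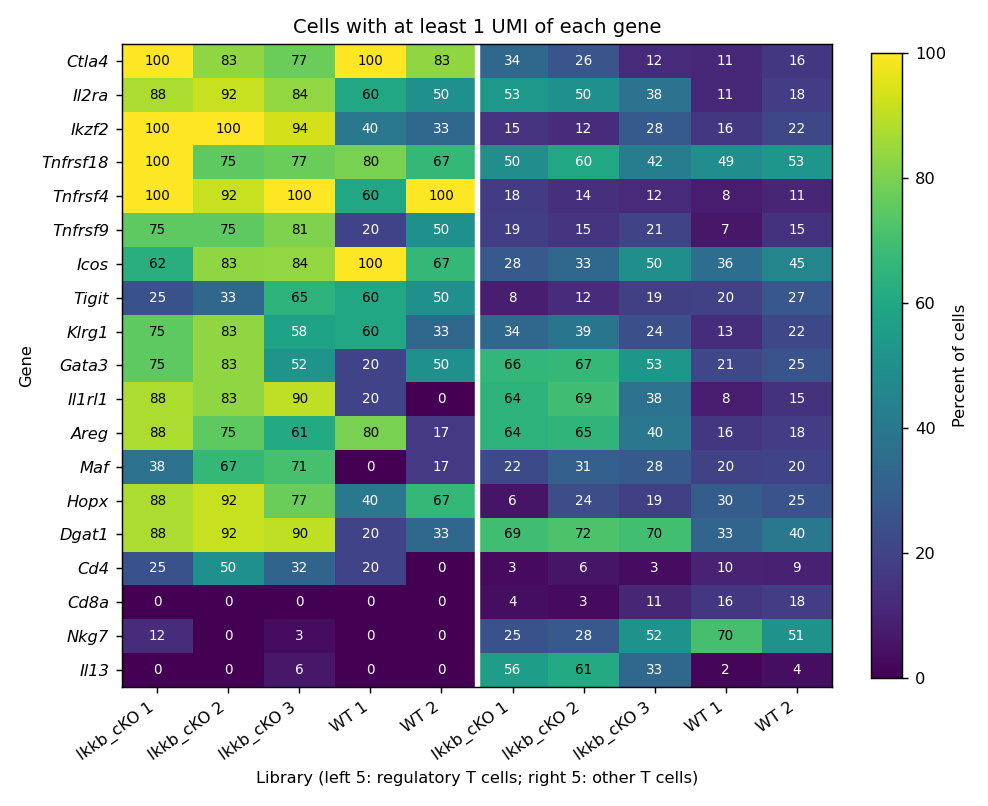
Percent of cells with at least 1 UMI of each gene, in regulatory T cells (left 5 columns) and other T cells (right 5 columns) of each library, with the value printed in each field. Tnfrsf4 was found in 60% to 100% of members and in 8.2% to 17.8% of other T cells, while Il1rl1 was found in 83.3% to 90.3% of Ikkb_cKO members and in 20% and 0% of WT members.

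Beyond the core genes, a rise was seen for Frmd5, a FERM domain protein, at log2 4.58 (SE 0.66), on 23 UMIs in Ikkb_cKO members and 3 in WT members. Hopx, a small homeodomain protein that does not itself bind DNA, had 1532, 1694 and 2230 CPM in Ikkb_cKO members and 587 and 616 CPM in WT members. Other T cells had 27.4, 129 and 141 CPM in Ikkb_cKO and 134 and 110 CPM in WT. Members were higher in every library (log2 3.48, SE 0.39, adjusted p = 1.83e-05 in edgeR). Cd5, a receptor that dampens T cell receptor signals, was higher by 2.49 (SE 0.33), and Cd2, an adhesion receptor, by 1.78 (SE 0.28). The other large rises were those of Rln3 (2.06, SE 0.29), a relaxin family peptide, Arhgap31 (1.99, SE 0.33), a GTPase-activating protein for Rac and Cdc42, and Ass1 (1.97, SE 0.37), an enzyme of arginine synthesis.

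**Figure D3:**
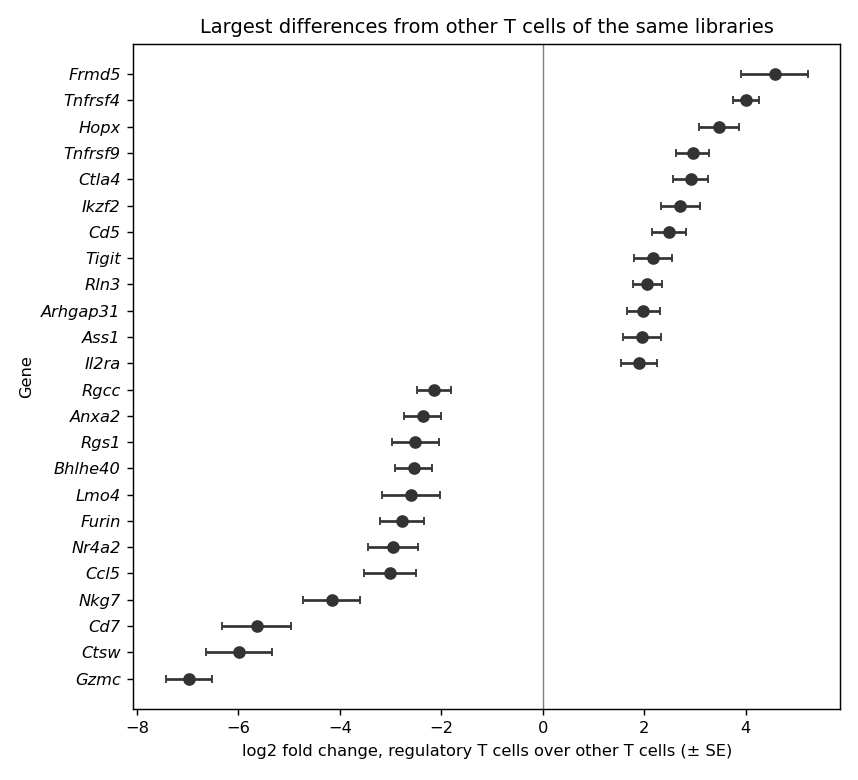
Log2 fold change of regulatory T cells over other T cells (points, with SE from edgeR's quasi-likelihood fit) for the 12 largest rises and 12 largest falls past the threshold that went the same way in all 5 libraries, leaving out genes at least 10 times higher in cells without CD3 than in members. Tnfrsf4 stands at 4.01, Ctla4 at 2.92 and Gzmc at -6.98.

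Genes of cytotoxic lymphocytes were far lower in members. Of 12 such markers, 7 could be tested and 6 were lower in members. Gzmc, a granzyme, had 2 UMIs in all members and 2925 in other T cells, a level 135-fold lower with a 95% counting interval of 37.4 to 1117. Ctsw, a cathepsin of cytotoxic cells, had 1 UMI against 743, a level 68.7-fold lower (12.3 to 2716). Nkg7, a protein of cytotoxic granules, had 209, 0 and 56.1 CPM in Ikkb_cKO members and 0 CPM in both WT libraries, against 340 to 1800 CPM in other T cells (log2 -4.16, SE 0.56, adjusted p = 8.88e-05 in edgeR). Gzma and Klrd1 had 0 UMIs in members against 343 and 229 in other T cells, so they were at least 10.6-fold and at least 7.06-fold lower at a floor of 3 UMIs over the members. Cd7, a surface protein of many T cells, had 1 UMI against 605. Gzmb did not follow this pattern: members had 836, 1107 and 715 CPM in Ikkb_cKO and 685 and 1055 CPM in WT, against 137, 59.8 and 130 CPM in Ikkb_cKO and 562 and 610 CPM in WT in other T cells. The Gzmb difference missed the threshold with TMM over all libraries (log2 1.87, SE 0.55, adjusted p = 0.0802 in edgeR). It passed with DESeq2's size factors (log2 1.98, adjusted p = 0.0405 in edgeR), with library totals (log2 2.11, adjusted p = 0.0270 in edgeR), with DESeq2 (adjusted p = 0.00338) and without Ikkb_cKO library 2, WT library 1 or WT library 2 (adjusted p = 0.0137, 0.00249 and 0.0161 in edgeR).

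Effector cytokines were nearly absent from members. Il13, a type 2 cytokine, had 0, 0 and 3 UMIs in Ikkb_cKO members and 0 in both WT libraries. Other T cells held 1382, 1491 and 1372 Il13 UMIs in Ikkb_cKO and 1 and 6 in WT. Over all libraries the members' level was 131-fold lower (44.8 to 636, counting error only). Csf2, the growth factor GM-CSF, had 0 UMIs in members and 813 in other T cells, at least 25.0-fold lower at the same floor. Il4, Il5, Ifng and Il17a had 0 UMIs in members, which allows up to 19.8 CPM for each over all members. Over the WT members alone it allows up to 139 CPM. The levels of these genes in other T cells are not reported here. Tbx21, a transcription factor of type 1 T cells, was not detected in any member.

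Some immediate early genes were also lower. Of 16 AP-1 and stress genes, 12 could be tested and 4 were lower in members, 0 higher. Fos had 139, 22.6 and 14.0 CPM in Ikkb_cKO members and 0 and 176 CPM in WT members. Other T cells had 579, 871 and 482 CPM in Ikkb_cKO and 409 and 489 CPM in WT. The cell sets did not overlap (log2 -3.96, SE 0.49, adjusted p = 2.66e-06 in edgeR). Fosb was lower by 2.97 (SE 0.44), with Atf3 at -3.46 (SE 0.75) and Rgs1, an inhibitor of chemokine receptor signals, at -2.51 (SE 0.46). Of 13 genes of T cell receptor signalling, 8 could be tested. Cd5 was higher and Nr4a2, Egr1, Cd69 and Tnfaip3 were lower. The Egr1 call was lost without Ikkb_cKO library 2 or 3 (adjusted p = 0.0566 and 0.0882 in edgeR). The Cd69 call was lost without Ikkb_cKO library 1, 2 or 3 or WT library 2 (adjusted p = 0.102 to 0.293 in edgeR) and with library totals (0.119). Junb (log2 -0.10, SE 0.15) and Nr4a1 (log2 -0.47, SE 0.24) did not pass the threshold. Other falls were those of the protease Furin (-2.77, SE 0.43), the transcriptional regulators Lmo4 (-2.60, SE 0.56) and Bhlhe40 (-2.54, SE 0.36), the membrane-binding protein Anxa2 (-2.37, SE 0.37) and Rgcc (-2.14, SE 0.33). The Lmo4 call was lost without Ikkb_cKO library 2 (adjusted p = 0.0503 in edgeR). Ribosomal protein genes were lower in 36 of 81 cases with TMM, but in 5 of 81 with library totals.

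Genes associated with regulatory T cells of tissues were not higher as a group in this comparison. Of 18 such genes, 11 could be tested. Klrg1 and Maf were higher, Areg was lower, and the median log2 difference was 0.05. Klrg1, an inhibitory receptor of differentiated lymphocytes, had 975, 791 and 701 CPM in Ikkb_cKO members and 294 and 528 CPM in WT members. Other T cells had 238, 214 and 133 CPM in Ikkb_cKO and 83.0 and 198 CPM in WT (log2 1.77, SE 0.28, adjusted p = 7.98e-05 in edgeR). Members were higher in each library. The Maf call was lost without Ikkb_cKO library 1 or 3 (log2 1.20 and 0.90, adjusted p = 0.177 and 0.531 in edgeR). Areg was lower at log2 -1.63 (SE 0.40, adjusted p = 0.0463 in edgeR), a call lost without any 1 of the Ikkb_cKO libraries (adjusted p = 0.0984, 0.0561 and 0.236 in edgeR without libraries 1, 2 and 3) and with either other scaling (adjusted p = 0.109 and 0.121 in edgeR). Gata3 (log2 0.03, SE 0.30) and Il1rl1 (log2 0.70, SE 0.30, adjusted p = 0.169 in edgeR) did not pass. Il1rl1 passed without Ikkb_cKO library 2 (log2 1.12, adjusted p = 0.0174 in edgeR).

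Of 16 genes of suppressive function, 7 could be tested, 2 were higher in members (Ctla4 and Tigit) and 0 lower. Il10, the anti-inflammatory cytokine, had 1, 7 and 3 UMIs in Ikkb_cKO members and 0 and 3 in WT members. Tgfb1 had 139, 226 and 126 CPM in Ikkb_cKO members and 294 and 440 CPM in WT members, against 391, 473 and 177 CPM in Ikkb_cKO and 364 and 280 CPM in WT in other T cells, and did not pass (adjusted p = 0.169 in edgeR). Of the other lists, 1 of 9 interleukin-2 and STAT5 genes tested was higher (Il2ra), and 0 of 9 homing receptors passed in either direction. Lrrc32 (GARP), which holds latent TGF-beta at the surface of regulatory T cells, had 2, 3 and 12 UMIs in Ikkb_cKO members and 2 and 2 in WT members. Other T cells, 557 in number, held 4 Lrrc32 UMIs in all. Lrrc32 did not pass the filter on low counts and was not tested. Of 17 NF-kB components and feedback genes, 10 could be tested. Rel, an NF-kB subunit known for its role in regulatory T cell development, was higher by 1.01 (SE 0.31) and Traf1, an adaptor of TNF receptors, by 1.26 (SE 0.30), while the feedback inhibitor Tnfaip3 was lower by 0.77 (SE 0.25). The Rel call was lost without Ikkb_cKO library 1 or 3 or either WT library (adjusted p = 0.0563 to 0.409 in edgeR). The Tnfaip3 call was lost without any 1 library except WT library 2 (adjusted p = 0.111 to 0.308 in edgeR) and with library totals (0.211). The Traf1 call held without each library in turn. Ikbkb itself had 0, 1 and 4 UMIs in Ikkb_cKO members and 1 and 1 in WT members. The position of the deleted exons is not given in the labels, so these 3' tags do not check the genotype.

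The genotypes were then compared within regulatory T cells, Ikkb_cKO over WT, with edgeR's quasi-likelihood test on the 5 library sums. Only 250 genes outside the rule passed the filter on low counts. The test called 16 genes (6.4%). In Ikkb_cKO 12 genes were higher (4.8%) and 4 were lower (1.6%), with 53 at an unadjusted p under 0.05. Of the 12, 7 were ribosomal protein genes, and the other 5 were Il1rl1, Dgat1, Tnfrsf9, Ikzf2 and Hopx. Genes that pass the filter through Ikkb_cKO alone had to be high there, so the 12 and the 4 are not set against each other.

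Il1rl1 (chromosome 1, 40429570 to 40465415) encodes ST2, the receptor chain for interleukin-33, an alarmin of barrier tissue. It had 42, 40 and 120 UMIs in members of Ikkb_cKO libraries 1, 2 and 3, against 2 and 0 in members of WT libraries 1 and 2. These are 2925, 904 and 1683 CPM in Ikkb_cKO, against 196 and 0 CPM in WT. The lowest Ikkb_cKO library lay above both WT libraries. The summed level was 16.8-fold higher in Ikkb_cKO, with a 95% counting interval of 4.59 to 140, and the fitted log2 fold change was 4.17 (SE 0.91, adjusted p = 0.0154 in edgeR). The call held without each of the 5 libraries in turn but was lost with limma's voom (log2 3.86, adjusted p = 0.159). Il1rl1 was found in 7 of 8, 10 of 12 and 28 of 31 Ikkb_cKO members, against 1 of 5 and 0 of 6 WT members. In cells rich in macrophage genes it was found in 9.09% of Ikkb_cKO cells and 7.19% of WT cells (median 1355.5 and 2388.5 UMIs), so the WT members' share of 9.09% is not read as expression. Summed markers of type 2 innate lymphoid cells, a list of 11 genes that includes Il1rl1 and Areg, held 0.843%, 0.569% and 0.467% of members' UMIs in Ikkb_cKO and 0.157% and 0.0791% in WT, with 8 of 11 detected. Their part in the Il1rl1 result was not tested. With members thinned to 1000 UMIs, 72.5% ± 9.70 of Ikkb_cKO members (SD, n = 3) and 8.56% ± 12.1 of WT members (SD, n = 2) held it, with a two-sided exact permutation p = 0.1, the smallest possible.

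Other T cells of the same skin showed a difference of like size. There Il1rl1 had 1364, 901 and 563 CPM in Ikkb_cKO and 44.7 and 76.9 CPM in WT (log2 4.11, SE 0.50, adjusted p = 0.00237 in edgeR, where 9.75% of 2903 genes were higher and 5.1% lower). The test of the difference between the cell sets gave 0.49 (SE 1.11, adjusted p = 1.0 in edgeR). A higher Il1rl1 level was therefore not shown to be particular to regulatory T cells. Within the members, 44 of the 45 Ikkb_cKO cells with Il1rl1 also held Ikzf2, 31 held Gata3, 33 held Klrg1 and 30 held Areg. Of all 51 Ikkb_cKO members, 49 held Ikzf2, 32 Gata3, 34 Klrg1 and 35 Areg. The shares among cells with Il1rl1 were thus near those of all Ikkb_cKO members. In WT, 7 of 11 members held neither Il1rl1 nor Ikzf2, against 1 of 51 in Ikkb_cKO.

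Ikzf2 (chromosome 1, 69531214 to 69687245), the Ikaros family factor Helios, had 1741, 1265 and 2202 CPM in Ikkb_cKO members and 587 and 352 CPM in WT members. It was found in 8 of 8, 12 of 12 and 29 of 31 Ikkb_cKO members, against 2 of 5 and 2 of 6 WT members. In cells rich in macrophage genes the shares were 0.568% in Ikkb_cKO and 1.12% in WT. The genotypes did not overlap in members (log2 1.92, SE 0.50, adjusted p = 0.0387 in edgeR). At 1000 UMIs per cell the shares were 84.0% ± 7.38 (n = 3) and 29.96% ± 11.3 (n = 2), again with the smallest possible exact permutation p of 0.1. The call was lost without Ikkb_cKO library 3 (log2 1.61, adjusted p = 0.0701 in edgeR) and without WT library 2 (log2 1.77, adjusted p = 0.147 in edgeR). Ikzf2 in other T cells differed by 0.85 (SE 0.98, adjusted p = 0.616 in edgeR), and the difference between the cell sets was 1.73 (SE 0.70, adjusted p = 0.658 in edgeR).

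Tnfrsf9 (chromosome 4, 150914562 to 150946102) had 836, 1355 and 1739 CPM in Ikkb_cKO members and 97.9 and 440 CPM in WT members. The WT values rest on 1 and 5 UMIs. Each Ikkb_cKO library was above both WT libraries (log2 2.32, SE 0.63, adjusted p = 0.0482 in edgeR). The call was lost without Ikkb_cKO library 2 (adjusted p = 0.0541 in edgeR), Ikkb_cKO library 3 (0.117) or WT library 1 (0.231). Dgat1 (chromosome 15, 76502015 to 76511953), the enzyme of the last step of triglyceride synthesis, had 1393, 926 and 1276 CPM in Ikkb_cKO members and 97.9 and 264 CPM in WT members (log2 2.66, SE 0.60, adjusted p = 0.0156 in edgeR). A Dgat1 UMI was found in 46 of 51 Ikkb_cKO members and 3 of 11 WT members, so its WT level also rests on few UMIs. Among cells rich in macrophage genes, 10.2% of Ikkb_cKO and 3.83% of WT cells held Dgat1. It was lost only without WT library 1 among the 5 (log2 2.31, adjusted p = 0.116 in edgeR). In other T cells both genes were also higher in Ikkb_cKO, Tnfrsf9 by 1.55 (SE 0.44) and Dgat1 by 2.36 (SE 0.33). Hopx (chromosome 5, 77086988 to 77115121), whose CPM in members stand above, was higher by 1.63 (SE 0.45, adjusted p = 0.0482 in edgeR), and in other T cells it differed by -0.06 (SE 0.59, adjusted p = 0.955 in edgeR). The difference of these effects was 2.20 (SE 0.68) and did not pass (adjusted p = 0.266 in edgeR). The Hopx call was lost without Ikkb_cKO library 3 (adjusted p = 0.0701 in edgeR), WT library 1 (0.141) or WT library 2 (0.138). With DESeq2's Wald test Tnfrsf9, Ikzf2 and Hopx did not pass (adjusted p = 0.0631, 0.0614 and 0.0986). Dgat1, Tnfrsf9, Ikzf2 and Hopx did not pass with limma's voom (adjusted p = 0.156, 0.234, 0.299 and 0.240). The same genes did not pass with the replicate number as a block (adjusted p = 0.161, 0.175, 0.175 and 0.195 in edgeR). Among members with at least 2 Foxp3 UMIs Hopx stood at log2 0.80 (adjusted p = 0.651 in edgeR).

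**Figure D4:**
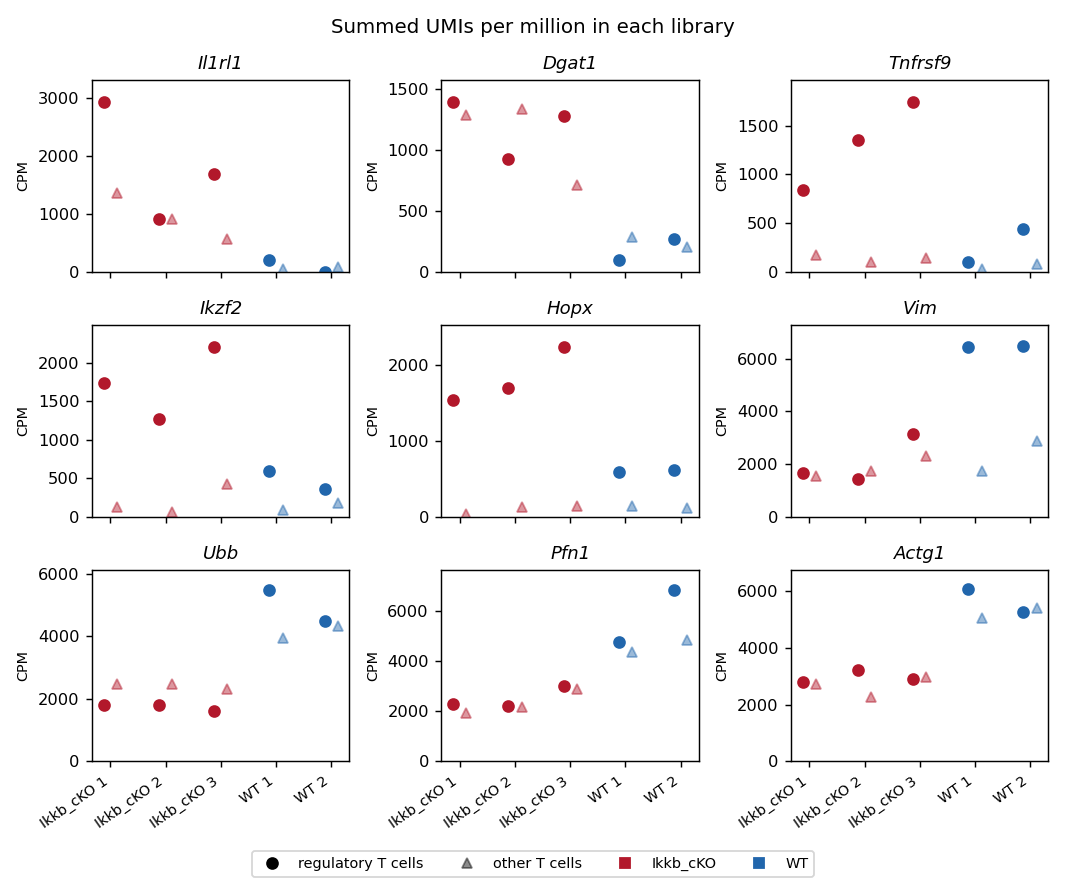
CPM from summed UMIs (linear axes from 0) of 9 genes in each library, for regulatory T cells (circles) and other T cells (triangles), with Ikkb_cKO in red and WT in blue. Il1rl1, Dgat1, Tnfrsf9, Ikzf2 and Hopx lie higher in all 3 Ikkb_cKO circles than in both WT circles, and Vim, Ubb, Pfn1 and Actg1 lie lower.

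The promoters of Il1rl1 and Tnfrsf9, a pair of receptors that were higher in both cell sets, are shown because the data bear on their transcript levels. Each sequence spans 250 bases before to 50 bases after an annotated start, from RefSeq (GRCm38.p6), 5′ to 3′ on the gene's strand, and capitals mark the motif matches. Both strands were searched. The forkhead core letters, GTAAACA, were in 3.65% of 32851 promoters. The STAT palindrome, TTCNNNGAA, was in 8.3% of them. A motif of GATA factors was in 3.04% of them, and its letters were AGATAAG.
Il1rl1 start 1, chr1:40429320-40429619, plus strand: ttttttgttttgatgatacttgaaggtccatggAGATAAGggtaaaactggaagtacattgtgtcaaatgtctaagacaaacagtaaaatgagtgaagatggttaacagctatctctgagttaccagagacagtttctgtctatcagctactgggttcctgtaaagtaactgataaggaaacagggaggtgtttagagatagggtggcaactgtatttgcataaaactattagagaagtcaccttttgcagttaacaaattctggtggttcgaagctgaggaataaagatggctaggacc
Il1rl1 start 2, chr1:40439379-40439678, plus strand: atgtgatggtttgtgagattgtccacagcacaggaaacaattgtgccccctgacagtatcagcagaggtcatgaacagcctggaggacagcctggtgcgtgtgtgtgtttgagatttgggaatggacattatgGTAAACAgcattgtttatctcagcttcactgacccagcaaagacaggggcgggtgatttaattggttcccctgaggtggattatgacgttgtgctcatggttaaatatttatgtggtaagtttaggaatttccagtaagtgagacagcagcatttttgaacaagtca
Tnfrsf9 start 1, chr4:150919905-150920204, plus strand: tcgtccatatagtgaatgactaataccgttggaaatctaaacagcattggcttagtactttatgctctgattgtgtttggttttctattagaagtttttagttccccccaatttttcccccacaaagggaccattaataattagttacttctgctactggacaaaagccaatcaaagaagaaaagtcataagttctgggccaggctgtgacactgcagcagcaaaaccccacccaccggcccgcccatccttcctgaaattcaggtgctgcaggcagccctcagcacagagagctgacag
Tnfrsf9 start 2, chr4:150927749-150928048, plus strand: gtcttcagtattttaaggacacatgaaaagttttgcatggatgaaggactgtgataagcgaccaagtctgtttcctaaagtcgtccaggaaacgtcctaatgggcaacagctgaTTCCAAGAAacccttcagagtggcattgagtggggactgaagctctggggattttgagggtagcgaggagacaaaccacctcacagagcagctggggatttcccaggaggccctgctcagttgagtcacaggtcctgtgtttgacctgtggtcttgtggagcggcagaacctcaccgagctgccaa
The upstream Il1rl1 start held a GATA match, the downstream Il1rl1 start a forkhead match, and the downstream Tnfrsf9 start a STAT match. A match is a description of letters and not a site shown to be bound.

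The 4 genes lower in Ikkb_cKO members were Vim, Ubb, Pfn1 and Actg1. Vim, the intermediate filament vimentin, had 1672, 1446 and 3127 CPM in Ikkb_cKO members, against 6459 and 6507 CPM in WT members (log2 -1.57, SE 0.32, adjusted p = 0.0148 in edgeR). Ubb, a ubiquitin precursor, had 1811, 1807 and 1613 CPM in Ikkb_cKO members, against 5481 and 4485 CPM in WT members (log2 -1.50, SE 0.27, adjusted p = 0.00678 in edgeR). For both genes the groups lay well apart. Pfn1, the actin-binding protein profilin, had 2298, 2236 and 3015 CPM in Ikkb_cKO members and 4795 and 6859 CPM in WT members (log2 -1.17, SE 0.26). Actg1, cytoplasmic actin, was lower by 0.91 (SE 0.22). The Vim call held without each library in turn but was lost among members with at least 2 Foxp3 UMIs (log2 -0.49, adjusted p = 0.651 in edgeR). Ubb was lost without WT library 1 (adjusted p = 0.122 in edgeR), and Pfn1 and Actg1 without Ikkb_cKO library 1 (0.0795 and 0.187), WT library 1 (0.0517 and 0.559) or WT library 2 (0.449 and 0.346). Other T cells were also lower in Ikkb_cKO for Ubb (-0.59, SE 0.14), Pfn1 (-0.80, SE 0.17) and Actg1 (-0.79, SE 0.14), while Vim stood at -0.13 (SE 0.23). The Vim effect in members minus that in other T cells was -1.21 (SE 0.41) and did not pass (adjusted p = 0.311 in edgeR). Tspo, a mitochondrial outer membrane protein, stood at log2 -2.0 (SE 0.58) and did not pass (adjusted p = 0.0641 in edgeR).

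The ribosomal protein genes higher in Ikkb_cKO members were Rps28 (1.87), Rpl38 (1.63), Rps29 (1.61), Rps27 (1.48), Rpl37a (1.33), Rps21 (1.25) and Rpl39 (1.16), on the log2 scale, out of 76 tested. In other T cells 32 of 81 ribosomal protein genes were higher in Ikkb_cKO and 0 were lower, so the rise extended to cells outside the regulatory set. The Ikkb_cKO libraries were shallower over all kept cells, with median UMIs of 1610.5, 1885 and 2793, against 3607 and 4035 in WT. In the cells tested the order was the reverse. Median UMIs were 2199 in Ikkb_cKO and 1785 in WT members, and 2543 in Ikkb_cKO and 2053 in WT other T cells. The part of depth in the ribosomal result was not tested.

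Of the 22 core genes of regulatory T cells, 7 could be tested between the genotypes, 2 were higher in Ikkb_cKO (Ikzf2 and Tnfrsf9) and 0 lower. Ctla4 (log2 -0.74, SE 0.51), Tnfrsf4 (-0.66, SE 0.37), Icos (-0.25, SE 0.51), Il2ra (0.41, SE 0.45) and Tnfrsf18 (0.14, SE 0.50) all missed the threshold, with adjusted p of 0.316 to 0.933 in edgeR. By share of cells thinned to 1000 UMIs, Il2ra was found in 76.1%, 65.4% and 61.7% of members in Ikkb_cKO libraries 1 to 3, against 42.1% and 39.7% in WT libraries 1 and 2. These shares did not overlap (exact permutation p = 0.1, the smallest possible), while the Il2ra CPM did. Foxp3, fixed in part by the rule, had 905, 429 and 996 CPM in Ikkb_cKO and 587 and 967 CPM in WT. Of the 18 tissue genes only 4 could be tested, and Il1rl1 passed. Areg had 3343, 3660 and 1164 CPM in Ikkb_cKO members, against 1077 and 176 CPM in WT members (log2 2.12, SE 0.68, adjusted p = 0.102 in edgeR). It passed with DESeq2 (adjusted p = 0.0443), without Ikkb_cKO library 3 (log2 2.50, adjusted p = 0.0146 in edgeR) and without WT library 1 (log2 4.06, adjusted p = 0.0231 in edgeR). Its groups did not overlap but lay close. Maf, a transcription factor of interleukin-10 producing T cells, had 10, 13 and 56 UMIs in Ikkb_cKO members and 0 and 1 in WT members. Its summed level was 13.1-fold higher (2.29 to 525), and it did not pass (adjusted p = 0.117 in edgeR). Rora, a nuclear receptor of skin and type 2 lymphocytes, had 9, 25 and 77 UMIs in Ikkb_cKO members and 2 and 1 in WT members, a level 6.15-fold higher (2.05 to 30.3, counting error only), and was not tested. Klrg1 differed by 0.95 (SE 0.52, adjusted p = 0.306 in edgeR).

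Genotype effects were finally compared between the cell sets, as the effect in regulatory T cells minus that in other T cells, with library as a block. Of 2942 genes, 3 had a higher effect in members (0.102%) and 0 a lower one (0%), with 162 at an unadjusted p under 0.05 and 0 calls with DESeq2. Higher effects were 72.7% of 11 calls with DESeq2's size factors and 60% of 10 calls with library totals, so lower effects passed under both of these scalings. The 3 genes with a higher effect with TMM were Stmn1, H2afz and Gzmb, and none of the 3 calls held without WT library 2. In Gzmb, a granzyme, the effect in members was 0.04 (SE 0.44) and that in other T cells -2.19 (SE 0.30), a difference of 2.65 (SE 0.63, adjusted p = 0.0254 in edgeR). Gzmb was level in members of both genotypes, while in other T cells it stood lower in every Ikkb_cKO library. H2afz, a histone variant, differed by 0.92 (SE 0.41) in members and by -0.72 (SE 0.39) in other T cells, a difference of 1.95 (SE 0.45, adjusted p = 0.0254 in edgeR). Stmn1, a microtubule regulator of dividing cells, had 0, 15 and 21 UMIs in Ikkb_cKO members and 0 in both WT libraries, so its fitted difference rests on a count of 0. In other T cells it had 207, 174 and 441 CPM in Ikkb_cKO and 613 and 1010 CPM in WT. Proliferation genes Mki67, Top2a, Cdk1 or Birc5 were found in 1, 3 and 4 Ikkb_cKO members and in 0 of 11 WT members. A cell with no captured UMI may still express them, so no limit is drawn from the WT count.

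No difference in the opposite direction passed with TMM over all 5 libraries. Areg was higher in Ikkb_cKO other T cells by 4.71 (SE 0.78) and stood 2.12 above WT in Ikkb_cKO members (SE 0.68, not past the threshold), a difference of -2.15 (SE 0.54, adjusted p = 0.0522 in edgeR). The Areg difference passed in 13 of 18 alternatives, among them DESeq2's size factors (adjusted p = 0.0109 in edgeR), library totals (0.00579) and leaving out WT library 2 (-2.98, 0.00391), and it turned to 0.16 without WT library 1. Il2ra was higher in Ikkb_cKO other T cells by 3.03 (SE 0.50, adjusted p = 0.00672 in edgeR), where it had 672, 553 and 260 CPM against 57.4 and 76.9 CPM in WT. In members Il2ra had 1811, 1062 and 1262 CPM in Ikkb_cKO and 587 and 1407 CPM in WT. The members' genotypes overlapped, those of other T cells did not, and the difference of -2.09 (SE 0.66) missed the threshold (adjusted p = 0.266 in edgeR). It passed without Ikkb_cKO library 3 (-2.54, adjusted p = 0.0420 in edgeR).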

How the data were processed

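Skin cells were profiled by 10x 3' v2 single-cell RNA sequencing. The deposited matrices hold UMI counts per gene and barcode, made by the authors with Cell Ranger 1.3.0 on mm10, per the submitters' processing notes. The matrix headers name software 3.0.1. The strand setting of counting is not given in the sources used here, so overlapping genes (Foxp3 and Flicr, Hopx and Hopxos, Tnfrsf9 and Camta1) cannot be told apart.

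Barcodes under 300 genes or over 10% mitochondrial UMIs were dropped. Scrublet (scanpy 1.11.5) called 25 barcodes (0.226%), too few to have worked, so the highest scores at the expected rate were removed as an alternative chosen after seeing the data. Members' UMIs were summed per library and tested with edgeR 4.0.16 (quasi-likelihood, TMM, filterByExpr at 10 counts, R 4.3.3), with Benjamini-Hochberg adjustment at 0.05, and genes of the rule were left out. SE is the fold change divided by the root of F. Shares were tested with exact permutation tests over libraries. Thinned values are means of 20 draws. Intervals (exact, 95%) and floors of 3 UMIs cover counting error only. The tests were checked on simulated data. Alternatives used DESeq2 1.42.0 and limma 3.58.1.

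Members and gene lists were chosen with earlier results of these data known. Named genes were the always-reported markers, up to 12 largest rises and 12 largest falls past the threshold that went the same way in all libraries or did not overlap between groups, and list members with the smallest p. Ribosomal, mitochondrial and sex-linked genes, and genes at least 10 times higher in cells without CD3, were excluded from the ranking. Lrrc32, Frmd5's UMI split and co-detected pairs were described after their values were seen. Positions are from GENCODE (GRCm38), and promoters from RefSeq. Some genes of the lists are not reported here.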

Additional observations from a re-analysis of the deposited data

Results flagged for a closer look

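Stmn1, H2afz and Gzmb had genotype effects that differed between regulatory T cells and other T cells by the test of the difference itself in edgeR. The difference was 9.49 for Stmn1 (SE 2.19), 1.95 for H2afz (SE 0.45) and 2.65 for Gzmb (SE 0.63) on the log2 scale, each with adjusted p = 0.0254 in edgeR. Stmn1 had 0 UMIs in both WT libraries, so its fitted value depends on the prior count and is no bound. H2afz had 1950, 2801 and 4544 CPM in Ikkb_cKO members and 1859 and 1583 CPM in WT members. In other T cells H2afz had 754, 767 and 1582 CPM in Ikkb_cKO and 1519 and 2372 CPM in WT. Without WT library 1 the calls of Gzmb (adjusted p = 0.143 in edgeR) and Stmn1 (0.0635) were lost. Without WT library 2 those of Gzmb (0.197), H2afz (0.579) and Stmn1 (0.591) were lost.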

How the results depend on the processing

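The WT members hold few molecules, and depth limits every genotype comparison within them. The higher share of kept cells kept its direction under each alternative run. The thinned share of T cells, 1.44 percentage points higher in Ikkb_cKO, ran from -0.303 to 3.17 when a library was left out, and was -0.303 without WT library 1. The 16 genotype calls were not all kept in other fits, whose totals include new genes. Without 1 Ikkb_cKO library 17 to 21 genes were called, with 13 to 15 of the 16 among them. Fewer of the 16 were kept without either WT library. Removing the highest Scrublet scores at the expected rate took out 1 member, of WT library 1. There 12 genes were called, 11 of them among the 16. Lost were Ikzf2 (adjusted p = 0.0754 in edgeR), Tnfrsf9 (0.0832), Hopx (0.0832), Vim (0.0504) and Actg1 (0.134). Totals were 8 with limma's voom, 2 with at least 2 Foxp3 UMIs and 10 with Ikkb_cKO libraries 1 and 2 summed. Of those 10, 8 were among the 16. With the replicate block there were 5. Deviations from the genotype means had correlations of -0.0313 and -0.0611 between same-numbered libraries over 254 genes. With 2 WT libraries their deviations mirror each other, so these values cannot decide whether the numbers pair the libraries. No source says that they do. Il1rl1 lost its call with voom (adjusted p = 0.159 in limma) and with the replicate block (adjusted p = 0.0562 in edgeR).

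Against other T cells, the 144 calls became 53 to 158 without 1 library, 79 with DESeq2, 464 with no filter on low counts, 9 with at least 10 UMIs in every sum, 74 with at least 2 Foxp3 UMIs and 43 with no replicate block. For the difference of genotype effects, the 3 calls became 1 to 14 without 1 library, 11 with DESeq2's size factors, 10 with library totals, 0 with DESeq2's test, 22 with voom, 5 with no filter and 0 with at least 10 UMIs. They became 5 with the looser cell filter, 12 with the stricter, 10 with doublets removed at the expected rate, 5 without macrophage-rich cells, 5 without genes of other cells and 15 with Ikkb_cKO libraries 1 and 2 summed. The Areg difference, -2.15, turned to 0.16 without WT library 1 and was -2.98 without WT library 2. Library totals moved the median difference by -0.240 on the log2 scale. The causes were not tested.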
